A study of Drosophila melanogaster and Drosophila simulans with 11 samples.

Results

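The stretches described here are the parts of the *D. melanogaster* X-chromosome that lay far from every wild type binding region of MSL2 and MOF. A region of each wild type library was defined from the median of the values in 500 bp windows, and it held the highest 1.5 percent of these smoothed values in its file. The stretches are made of 1 kb bins of X that lay over 20 kb from every such region and held 25 or more wild type MSL2 values. There were 7526 such bins, which is 47.3% of the 15906 X bins with 25 or more wild type MSL2 values and 33.6% of all 22423 X bins. The 5 libraries together cover 163915 bins of the genome, of which 102282 had 25 or more wild type MSL2 values. Consecutive bins over 20 kb from every region formed a stretch when at least 1 of them met the number of values, which gave 121 stretches.

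MSL proteins were mapped by ChIP-seq in salivary glands of larvae of instar 3 raised at 25°C, with 125 glands per sample. The *roX* mutants were males that carried y, w, the alleles roX1[ex6] and Df(1)roX2[52], and the transgene P[w+ 4Δ4.3] over Y. They lack both *roX* RNAs and were analysed with 3 libraries, for MSL1, MSL2 and MOF. Wild type was Oregon R, with a library each for MSL2 and MOF, and wild type MSL1 was not analysed here. Each antibody and genotype had 1 library, and the libraries of a genotype shared an input, so no spread between replicates was available and no test across conditions was made. All values are log2 ratios of ChIP to input, averaged in 1 kb bins that hold 25 or more of the 100 possible values. A bin with that many values is called measured in a library. Levels were compared as medians over bins, and positions follow release 5. The rest of X means the other 8380 X bins with 25 or more wild type MSL2 values.

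In *Drosophila* males the MSL-complex binds the single X-chromosome and raises the expression of its genes. MSL1 is the scaffold protein of the complex and MSL2 is its male-specific subunit, while MOF acetylates histone H4 at lysine 16 and also acts outside the complex on all chromosomes. The *roX* RNAs are the non-coding RNA part of the complex and take part in its targeting along X. From entry sites of high affinity the complex spreads mainly to transcribed genes.

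The 121 stretches covered 12423 kb, or 55.4% of X. Their median length was 73 kb, with quartiles of 37 and 127 kb, and the shortest was 1 kb and the longest 520 kb. The 49 stretches of 100 kb or longer held 9234 kb, which is 74.3% of the stretch length. There were 14 stretches of 200 kb or longer and 12 of 10 kb or shorter. The median bin lay 47.4 kb from the nearest wild type region and the farthest 241 kb, while 3482 bins were over 50 kb away and 893 over 100 kb. Of the bins on 2L, 2R, 3L and 3R, leaving out 2 Mb next to the centromere, 92.6% lay as far from a region, and these 4 arms serve as the autosomal arms throughout. Since the regions are few there, distance alone does not separate X stretches from autosomes.

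**Figure D1:**
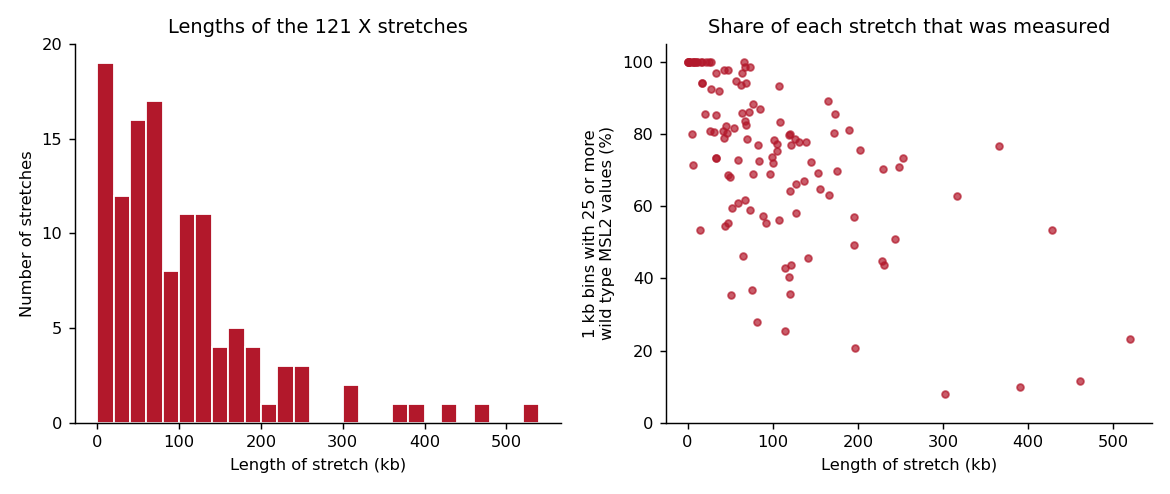
The left panel counts the 121 X stretches by length in kb, in steps of 20 kb. The right panel plots, for each stretch, its length against the percentage of its 1 kb bins with 25 or more wild type MSL2 values, which falls below 25% in 4 of the longest 7 stretches.

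The stretches were spread over the whole of X. Among consecutive 2.5 Mb segments, the share of bins over 20 kb from every wild type region lay between 47.2% in the segment at the telomere end and 72.5% in the last segment, at the centromere end. The next highest share was 67.8%, between 2500001 and 5000000. These shares include bins without values. Among bins measured for wild type MSL2, the share was highest between 2500001 and 5000000, at 59.9%, and was 55.9% in the last segment. The lowest share of measured bins was 41.4%, between 15000001 and 17500000. Segment medians of wild type MSL2 in the stretches lay between 0.24 and 0.30. This library helped to choose the bins, so that range is partly fixed by the rule.

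Many bins inside the stretches could not be measured. Of the X bins over 20 kb from every region, 12738 in all, 59.1% had 25 or more wild type MSL2 values, against 86.5% of the bins within 20 kb. Inside the stretches 4897 bins did not reach this number, and 4324 did not reach it in any of the 5 libraries. Over all stretches 60.6% of the bins were measured, and the 10 longest were less complete, since 40.6% of their 3529 bins had enough wild type MSL2 values. At least 50% of the bins were measured in 103 stretches, and less in 18. A further 2 places over 20 kb from every region held no measured bin at all, the first 9 kb of X and 306 kb from 21521001 to 21827000, where no bin held more than 8 values.

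The longest stretch reached from 2663001 to 3183000, over 520 kb, and 121 of its bins were measured. It held a run of 130 kb without a measured bin. The stretch from 20416001 to 20877000 was 461 kb long with 53 measured bins and an unmeasured run of 188 kb. From 11943001 to 12333000, 39 of 390 bins were measured, and from 14156001 to 14458000 24 of 302. In these 4 stretches most of the length therefore counts as empty without having been measured. Salivary gland chromosomes are polytene, and parts of them are known to be replicated less than the rest, but whether replication moved with these gaps was not tested.

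Other long stretches were measured more completely for wild type MSL2. In the 6 that follow, smoothed windows that could be called a region covered 27.7% to 54.2% of the positions for MSL2. For wild type MOF they covered 0% to 14.4%. From 17108001 to 17474000 the stretch was 366 kb long and 281 bins were measured, and no unmeasured run exceeded 6 kb. Its median was 0.27 for wild type MSL2. From 7242001 to 7559000, 199 of 317 bins were measured with a median of 0.27, from 3403001 to 3656000 186 of 253 with 0.26, and from 9697001 to 9945000 176 of 248 with 0.32. The stretch nearest the centromere, from 21962001 to 22390000, had 229 of 428 bins measured and a median of 0.22. The stretch from 18808001 to 19052000, with 124 of 244, had a median of 0.27. These 6 medians lie between 0.22 and 0.32, and the medians of the 4 autosomal arms for wild type MSL2 between 0.18 and 0.25.

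Wild type MOF was hardly measured in the stretches. Only 948 of the 7526 bins, 12.6%, held 25 or more MOF values, against 59.3% in the rest of X and 77.4% on the autosomal arms. In 46 stretches no bin reached this number. Smoothed windows that could have been called a region covered 4.50% of the stretch positions for MOF and 40.5% for MSL2, while within 20 kb of a region they covered 44.3% for MOF and 74.0% for MSL2. The absence of a MOF region from most stretches thus rests largely on positions without values. Whether MOF was low at such positions cannot be told, because the rule for leaving out values is not given. The share was uneven along X, from 1.17% in the segment between 5000001 and 7500000 to 56.8% in the last segment.

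Among stretches with 10 or more bins measured for wild type MSL2, 7 with a total of 879 kb and 498 such bins had at least 50% of these bins measured for wild type MOF as well. The first of the 7 began at 18048001. The 86 MOF bins from 19190001 to 19355000 had a median of 0.20 and a highest value of 0.74, and the 68 from 20945001 to 21082000 a median of 0.39 and a highest value of 1.53. In the other 5 stretches the medians were 0.36 to 0.55. The cutoff of a MOF region was 2.12, and the bins measured there lay below it. The rule left no MOF region in these stretches, so this follows largely from the choice of bins. Smoothed MOF windows covered 16.5% to 59.7% of the positions in the 7 stretches, so that much of their length was also without MOF values.

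The wild type values chose the members and are given as a description only. The wild type MSL2 median was 0.28 in the stretches, 0.38 in the rest of X and 0.21 on the autosomal arms. The arms ranged from 0.18 to 0.25, and 68.7% of the stretch bins lay above the median of all arms. The medians of MOF in wild type were 0.37 in the stretches, 1.00 in the rest of X and 0.15 on the autosomal arms. The arms differed widely for MOF, from 0.0090 on 2R to 0.36 on 3R, so that the stretches lay close to the highest arm. Bins just inside the threshold, 20 to 25 kb from a region, had a median of 0.28 for MSL2 and 0.31 for MOF. Bins just outside, at 15 to 20 kb, had 0.27 for MSL2 and 0.33 for MOF. In *roX* mutants the medians just inside were 0.47 for MSL1, 0.24 for MSL2 and 0.22 for MOF, and just outside 0.40, 0.20 and 0.18. None of the 5 libraries moved by more than 0.07 across the threshold.

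The *roX* mutant libraries were not used by the rule, but their X stretches were also thinly measured. Among the stretch bins, 25 or more values were held by 569 (7.56%) in the MSL1 library, by 1956 (26.0%) in that of MSL2 and by 956 (12.7%) in that of MOF. On the arms 91.7% of the bins were measured for MSL2, 91.6% for MOF and 69.8% for MSL1. Values of the mutants therefore describe the measured minority of the stretches, and 32 stretch bins were measured in all 5 libraries.

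For *roX* mutant MSL1 the median was 0.42 in the stretches, 0.63 in the rest of X and -0.050 on the autosomal arms. The arms ranged from -0.092 to -0.0093, with an SD of 0.035 over the 4 arm medians. The stretches exceeded the arms by 0.47, and 98.1% of their bins lay above the arm median. In log2 units this excess was the largest of the *roX* mutant libraries. Their scales differ, since the region cutoff was 1.63 here, 0.60 in the MSL2 library and 0.81 in the MOF library. Whether the order would hold on a common scale was not tested. The difference to the rest of X was -0.21. It was -0.025 in bins of 25 to 49 values, a grouping added after the values had been seen, and -0.73 in the 32 stretch bins measured in all 5 libraries.

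For *roX* mutant MSL2 the medians were 0.25 in the stretches, 0.19 in the rest of X and 0.0049 on the autosomal arms. The stretches exceeded the arms by 0.24 with 89.1% of the bins above the arm median, and the SD over the arm medians was 0.015. MSL2 was thus higher in the stretches than in the rest of X, by 0.061. When bins with values in all 5 libraries were compared, 32 stretch bins remained and the difference was -0.087, and in bins with 75 or more values, of which the stretches had 10, it was -0.16. The order of the stretches and the rest of X for MSL2 in *roX* mutants therefore depended on the bins measured.

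For *roX* mutant MOF the medians were 0.24 in the stretches, 0.22 in the rest of X and 0.0020 on the autosomal arms. The stretches exceeded the arms by 0.24, with 89.3% of the bins above the arm median and an SD of 0.032 over the arm medians. The difference of 0.023 to the rest of X was smaller than that SD and changed its sign in several alternatives. It was -0.054 when means were used in place of medians, and -0.19 in bins with 50 or more values.

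**Figure D2:**
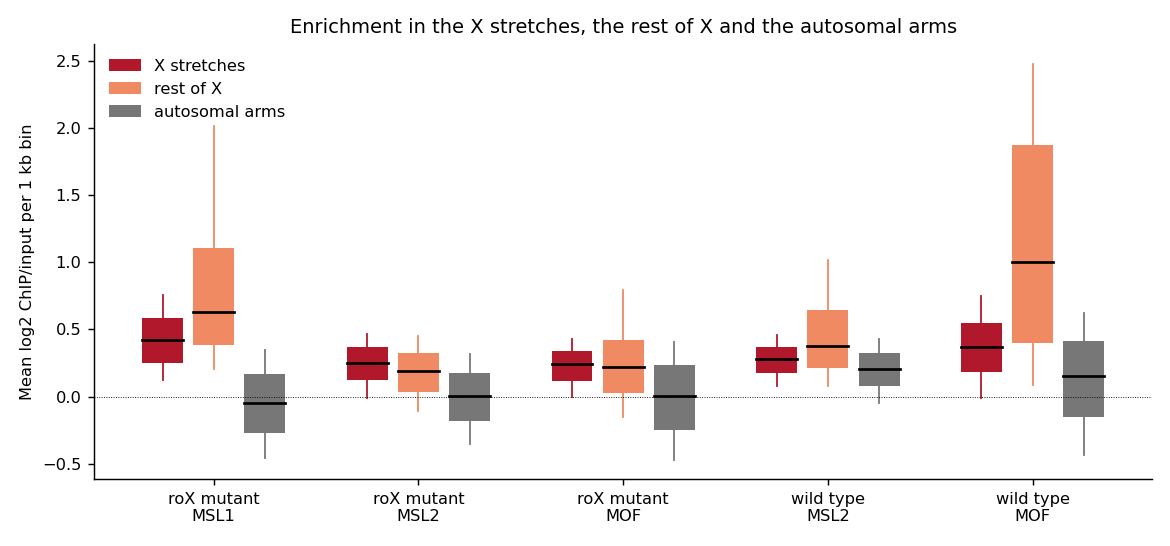
Mean log2 ChIP/input per 1 kb bin in the X stretches, the rest of X and the autosomal arms for the 5 libraries, with boxes for the quartiles, lines from the 10th to the 90th percentile and black bars for the medians. The stretch medians lie above the arm medians in each library, by 0.47 for *roX* mutant MSL1 and by 0.071 for wild type MSL2.

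The number of values in a bin moved with the comparison. In the stretches 83.7% of the *roX* mutant MSL1 bins held 25 to 49 values, against 40.7% on the autosomal arms, and for *roX* mutant MSL2 82.6% in the stretches and 9.95% on the arms. Within bins of 25 to 49 values, a grouping added after the values had been seen, the stretches of *roX* mutants exceeded the arms by 0.46 for MSL1, by 0.19 for MSL2 and by 0.32 for MOF. In wild type the excess was 0.036 for MSL2 and 0.31 for MOF. Bins of 50 to 74 values gave 0.49, 0.22 and 0.29 for *roX* mutant MSL1, MSL2 and MOF. The wild type values, which chose the bins, are given as a description, and the part of the number of values in these differences was not tested. X is present once in males, and an offset of X from the scaling to the input and a low level of protein along X cannot be told apart in these ratios.

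The stretches were then compared singly, where 10 or more of their bins were measured, with pieces of 100 kb of the autosomal arms. For *roX* mutant MSL1 16 stretches could be compared. Their medians lay between 0.17 and 0.54, all above the arm median of the pieces, and 15 exceeded 0.30, the 95th percentile of 864 pieces. For *roX* mutant MSL2 70 of 72 stretches lay above the median of the pieces and 30 above their 95th percentile of 0.28. For *roX* mutant MOF all 31 stretches lay above the median of the pieces and 0 above the 95th percentile of 0.43. The pieces of the arms varied more for MOF than for MSL2.

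**Figure D3:**
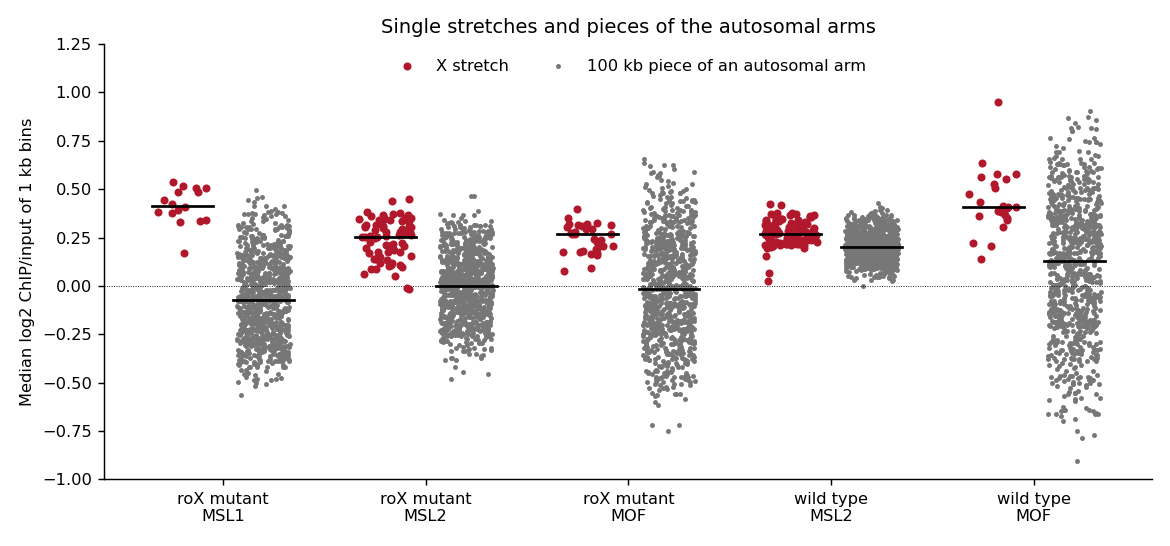
Each red point is the median log2 ChIP/input of an X stretch with 10 or more measured bins and each grey point that of a 100 kb piece of an autosomal arm, with black bars for the medians of the points. The 16 *roX* mutant MSL1 stretches sit between 0.17 and 0.54, and the 31 *roX* mutant MOF stretches all lie below 0.40.

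Only stretches with 10 or more bins measured for *roX* mutant MSL1 are ranked here. The highest *roX* mutant MSL1 median was found from 16101001 to 16145000, with 0.54 over 10 bins. It was followed by 172001 to 345000 near the telomere with 0.51 over 18 bins, and by 3403001 to 3656000 with 0.51 over 12 bins. The stretch from 14970001 to 15198000 had 0.50 over 28 bins and that from 7242001 to 7559000 0.49 over 13 bins. In each of these 5 stretches MSL2 was between 0.14 and 0.27 in *roX* mutants, and it was between 0.23 and 0.28 in wild type. The lowest MSL1 median was 0.17 over 16 bins, from 15917001 to 16059000. The next were 0.33 over 13 bins from 21894001 to 21916000, 0.34 over 10 bins from 8789001 to 8965000, 0.34 over 21 bins from 569001 to 635000 and 0.38 over 11 bins from 6454001 to 6539000. The highest and the lowest stretch are neighbours on X. Their quartiles over bins overlapped, at 0.31 to 0.59 in the highest and 0.05 to 0.48 in the lowest.

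For *roX* mutant MSL2 the medians of the 72 stretches with 10 or more measured bins ranged from -0.019 to 0.45. The lowest was found from 1699001 to 1733000, over 10 bins, and the highest from 15504001 to 15580000, also over 10 bins. The stretch from 4283001 to 4410000 had the next highest MSL2 median, 0.44 over 23 bins, and the highest *roX* mutant MOF median, 0.40 over 35 bins. Its wild type MSL2 median was 0.32. Over the 29 stretches with 10 or more bins in both, the medians of *roX* mutant MSL2 and MOF had a Pearson correlation of 0.71 and a Spearman correlation of 0.69. Both ratios were taken against the same input, so its variation enters both. Over 72 stretches the Pearson correlation of *roX* mutant and wild type MSL2, whose inputs differ, was 0.46 and the Spearman correlation 0.48. These are given as a description of the libraries.

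For wild type MOF the highest stretch median was 0.95, over 21 bins from 13001001 to 13070000, with quartiles of 0.11 and 1.21 and a highest bin of 1.70. *roX* mutant MSL1 had a median of 0.38 there over 17 bins. The MOF median of the stretch exceeded 0.75, the 90th percentile of all stretch bins measured for MOF. Its bins stayed below the cutoff of 2.12, which follows largely from the choice of stretches without a MOF region.

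With growing distance from wild type regions the libraries took different courses. *roX* mutant MSL1 was 0.94 inside wild type regions, 0.58 within 2 kb and 0.39 to 0.46 from 5 kb outward. *roX* mutant MSL2 was 0.23 inside, 0.15 within 2 kb and 0.14 at 2 to 5 kb, and then increased with distance to 0.19 at 10 to 20 kb, 0.25 at 30 to 50 kb and 0.28 beyond 100 kb. *roX* mutant MOF was 0.35 inside, 0.077 at 2 to 5 kb and 0.23 to 0.25 beyond 20 kb. Both the MSL2 and the MOF library of the mutants were thus lowest on X just beside the wild type regions and not in the stretches. Wild type MSL2 was 0.96 inside regions and 0.29 at 2 to 5 kb, and stayed between 0.27 and 0.28 beyond 5 kb. Wild type MOF was 2.05 inside regions, 0.86 within 2 kb and 0.42 at 2 to 5 kb, and lay between 0.30 and 0.40 beyond.

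**Figure D4:**
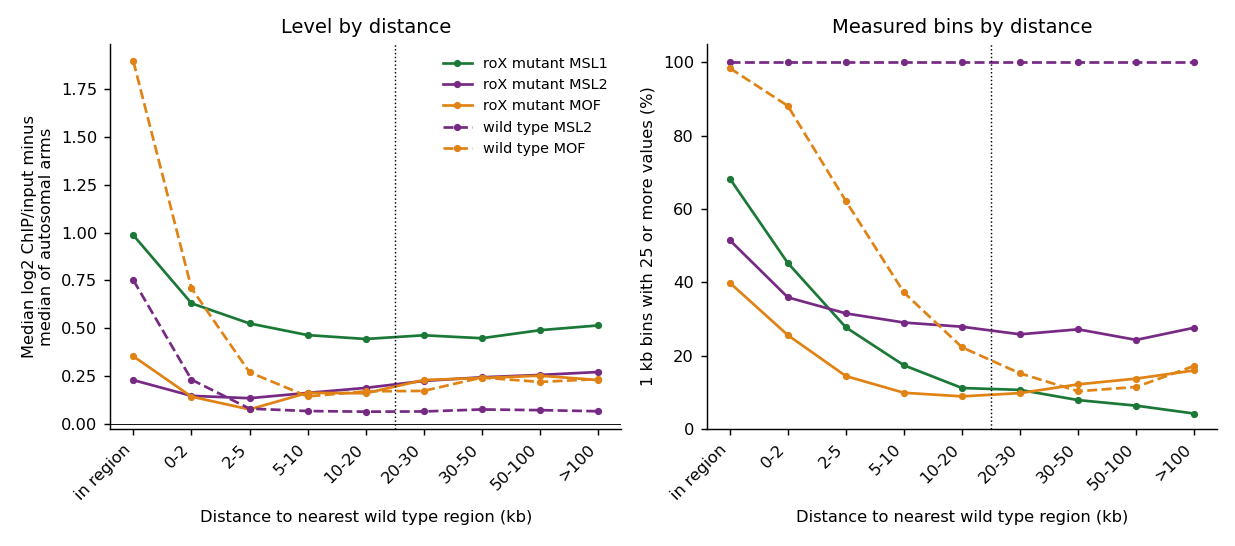
The left panel plots the median log2 ChIP/input of X bins minus the median of the autosomal arms, by distance to the nearest wild type region in kb, and the right panel the percentage of bins with 25 or more values, with the dotted line at 20 kb where the stretches begin. The *roX* mutant MSL2 curve climbs by distance to 0.27 above the arms beyond 100 kb, while wild type MSL2 stays at 0.063 to 0.075 above them beyond 10 kb.

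The share of bins with values changed along the same distances. For *roX* mutant MSL1 it was 68.3% inside wild type regions, 11.2% at 10 to 20 kb and 4.26% beyond 100 kb. For *roX* mutant MSL2 it was 51.5% inside and 24.3% to 27.9% beyond 10 kb. For *roX* mutant MOF it was 39.9% inside, 8.94% at 10 to 20 kb and 16.0% beyond 100 kb. For wild type MOF it was 98.4% inside, 22.3% at 10 to 20 kb, 10.3% at 30 to 50 kb and 17.2% beyond 100 kb. The part of these shares in the distance profile was not tested.

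Bound regions of the *roX* mutant libraries were defined with the same procedure. Among the 172 *roX* mutant MSL1 regions on X, 2 lay inside a stretch and 150 overlapped a wild type region. Of the measured stretch bins 7, or 1.23%, were in an MSL1 region, against 19.7% in the rest of X. The share was 1.34% over all chromosomes and 0.165% on the autosomal arms.

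Both MSL1 regions had values close to the median of the MSL1 regions on X. The region from 17179000 to 17180890 was 1900 bp long, lay 91.2 kb from the nearest wild type region and had a value of 2.29. The region from 14979920 to 14982620 was 2710 bp long, lay 30.1 kb away and had a value of 2.27. The median value of all MSL1 regions on X was 2.17. Averaged over the regions, *roX* mutant MSL2 was 0.45 in both, and *roX* mutant MOF was 0.35 in the first-named and 0.49 in the other. In wild type, MSL2 was 0.62 in the first-named and 0.57 in the other, and MOF 1.30 in the first-named and 1.37 in the other. These wild type levels stood above the stretch medians of 0.28 for MSL2 and 0.37 for MOF and below the cutoffs of 0.85 for MSL2 and 2.12 for MOF. The wild type libraries were thus raised at both places without reaching the threshold that defines a region. Wild type regions were excluded there by the rule.

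For *roX* mutant MSL2, 90 of 235 X regions (38.3%) lay inside stretches, in 46 of them. The stretches hold 55.4% of the X length, but most of their bins were not measured in this library. Measured bins numbered 1956 in the stretches and 2979 in the rest of X. Of the measured stretch bins 79, or 4.04%, were in an MSL2 region, against 6.48% in the rest of X, 3.75% over all chromosomes and 3.38% on the autosomal arms. The share in the stretches was thus near that of the genome as a whole. The regions were short, with a median of 320 bp and none over 580 bp. A least length of 1000 bp, applied also to the wild type regions, gave 8730 stretch bins and 0 of them in a region. That count follows largely from the short lengths. The cutoff of this library was 0.60, the lowest of the 5.

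The highest of these MSL2 regions, from 4400660 to 4400950, had a value of 0.89 over 300 bp. The wild type MSL2 mean there was 0.27. The following regions had values of 0.86 at 7497430 to 7497630, 0.84 at 4099390 to 4099760, 0.83 at 21307970 to 21308270 and 0.82 at 14859940 to 14860200. In wild type, MSL2 was 0.33, 0.18, 0.33 and 0.59 at these places. Among the 76 regions with 10 or more wild type MSL2 values, the median wild type mean was 0.27, against a median of 0.28 over all stretch bins. The rule excluded wild type MSL2 regions there, so these wild type levels are partly fixed by the choice of bins.

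For *roX* mutant MOF, 6 of 90 X regions lay inside stretches. They covered 4 measured stretch bins, 0.418%, against 13.4% in the rest of X, 2.88% over all chromosomes and 1.36% on the autosomal arms. The highest 5 were found from 18610990 to 18611360 with a value of 0.94, from 17891130 to 17891460 with 0.92, from 4404380 to 4404790 with 0.90, from 3014670 to 3015150 with 0.85 and from 2855630 to 2855870 with 0.83. The sixth, from 18470420 to 18470790, had 0.82, just above the cutoff of 0.81. All 6 were under 500 bp. The region at 4404380 lay in the same stretch as the highest MSL2 region, and 3014670 and 2855630 lay in the longest stretch, where wild type MSL2 had no values at these places.

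**Figure D5:**
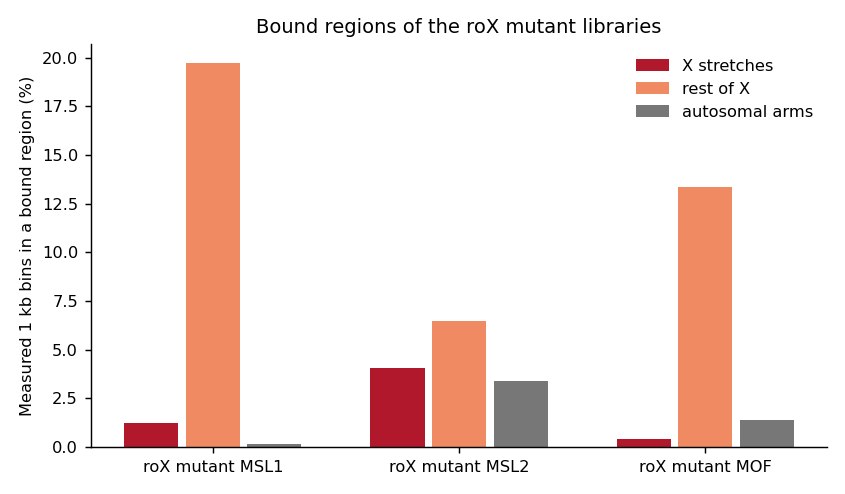
Percentage of measured 1 kb bins that lie in a bound region of each *roX* mutant library, in the X stretches, the rest of X and the autosomal arms. The stretches stand at 1.23%, 4.04% and 0.418% for MSL1, MSL2 and MOF, and the rest of X at 19.7%, 6.48% and 13.4%.

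In bins measured in both genotypes, *roX* mutants were compared with wild type directly. Over 1956 stretch bins the MSL2 median was 0.25 in *roX* mutants and 0.27 in wild type, and the median difference was -0.019. It was -0.31 over 2979 bins in the rest of X and -0.21 on the autosomal arms. Relative to the arms, the MSL2 difference was 0.19 in the stretches and -0.097 in the rest of X. The quartiles of the differences in the stretches were -0.16 and 0.11. For MOF 193 stretch bins were measured in both, with medians of 0.21 in *roX* mutants and 0.41 in wild type. The median difference was -0.20 in the stretches, -1.21 in the rest of X and -0.16 on the arms, so that relative to the arms it was -0.042 in the stretches and -1.05 in the rest of X. The rule used the wild type values to choose the stretch bins, and the rest of X includes the wild type regions, so that part of the difference is fixed by this choice in both. These differences are given as a description only.

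Within the stretches the libraries varied together from bin to bin to a modest degree. *roX* mutant MSL2 and MOF, with a shared input, had a Pearson correlation of 0.53 and a Spearman correlation of 0.49 over 443 stretch bins. The same pair had 0.70 in both in the rest of X, and 0.72 and 0.73 on the arms. *roX* mutant MSL1 and MOF, also with a shared input, had 0.41 in both over 152 stretch bins. That pair had 0.87 and 0.77 in the rest of X, which includes the wild type regions, and 0.63 and 0.65 on the arms. Over 948 bins wild type MSL2 and MOF, which share an input, had a Pearson correlation of 0.53 and a Spearman correlation of 0.47, against 0.88 and 0.87 in the rest of X and 0.40 in both on the autosomal arms. *roX* mutant and wild type MSL2, with separate inputs, had 0.23 in both over 1956 bins. Neighbouring bins are not independent, and most stretch bins hold few values.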

How the data were processed

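The authors mapped AB SOLiD reads uniquely to *D. melanogaster* release 5 with Bioscope v1.2.1 (per the methods and labels) and computed enrichment ratios of ChIP over input. The deposited files hold these as log2 ratios at every 10 bp, on the scale that the file headers name. The rule for positions without a value is not given in the sources used here. Read depth is unknown, and counting error could not be estimated. From the deposited log2 values, smoothed windows of 500 bp with 25 or more values, a cutoff at the highest 1.5 percent per file, joining of gaps up to 200 bp and a least length of 200 bp and 5 units gave the regions, whose value is the mean of the top 5 consecutive smoothed values. Distances run from a bin to the nearest wild type MSL2 or MOF region. Regions and bins were computed with pandas 2.3.3, numpy 2.4.6 and scipy 1.17.1 under Python 3.11.15, figures with matplotlib 3.10.9, and the procedure was tested on simulated data. In the simulation, positions without a value were placed at random and equally on X and the arms. It therefore did not address the sparser values in the stretches.

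The members, lists and alternatives were chosen with earlier results of these data known. Named were the 10 longest stretches, the 5 highest and 5 lowest in *roX* mutant MSL1 among those with 10 or more measured bins, and in each *roX* mutant library the 5 highest regions inside a stretch. Stretches and regions named for other libraries were chosen after their values were seen. With 1 library each no p-value is given. The alternatives were other cutoffs, distances, gaps, least lengths, numbers of values, means and each stretch counted once. The *D. simulans* libraries were not used here, and no sequence or gene was placed in the stretches because only a gene table of release 6 was given.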

Additional observations from a re-analysis of the deposited data

Results flagged for a closer look

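The difference between the stretches and the rest of X had opposite signs in the 2 genotypes, but in *roX* mutants its sign depended on the bins and summaries used. For MSL2 the median of the stretches minus that of the rest of X was 0.0611 in *roX* mutants and -0.0982 in wild type. For MOF it was 0.0232 in *roX* mutants and -0.637 in wild type. In *roX* mutants the MOF difference changed sign in 8 alternatives, for example to -0.054 with means and to -0.19 in bins with 50 or more values. The MSL2 difference changed sign in 2, to -0.087 and -0.16. With 1 library each the difference between genotypes was not tested. The wild type values chose the bins, so that the wild type differences are negative by that choice.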

How the results depend on the processing

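For all 5 libraries the stretches exceeded the autosomal arms under every alternative run. Differences are given in log2 units, with stretches first. Stretch bins in regions were counted here whether or not they were measured in the *roX* mutant library. Counted so, the main setting gave 7 for *roX* mutant MSL1, 95 for MSL2 and 4 for MOF. With the highest 1 percent, stretch bins in regions numbered 4 for *roX* mutant MSL1 and 61 for MSL2. With the highest 3 percent the stretches had 4520 bins and 7 in *roX* mutant MOF regions, and with the highest 5 percent 2028 bins. At 5 percent the *roX* mutant difference to the rest of X was -0.14 for MSL1 and 0.058 for MOF, and that to the arms 0.27 for both MSL2 and MOF. At over 10 kb the difference to the rest of X was -0.26 for MSL1 and -0.00059 for MOF, with 11 MSL1 bins in regions. At over 50 kb there were 74 stretches of 3482 bins, a difference of -0.14 for MSL1 and 3 MSL1 and 40 MSL2 bins in regions. With 10 or more values it was -0.14 for MSL1. With 50 or more values 4446 bins remained, 52 in MSL2 and 2 in MOF regions. The differences to the arms were then 0.54 for MSL1 and 0.20 for MOF, and those to the rest of X -0.39 for MSL1, 0.031 for MSL2 and -0.19 for MOF. A least region length of 1000 bp left 0 bins in MSL2 and 0 in MOF regions and a MOF difference to the rest of X of -0.00032. A cutoff from X, 2L, 2R, 3L, 3R and 4 alone gave 13 MSL1 bins in regions. Means gave -0.44 for MSL1 and -0.054 for MOF to the rest of X. Counting each stretch once gave 0.22 for MSL2 and 0.20 for MOF to the arms, and 0.037 for MSL2 and -0.017 for MOF to the rest of X. In the 32 bins with values in all 5 libraries the *roX* mutant differences to the arms were 0.57, 0.15 and 0.13 for MSL1, MSL2 and MOF, and to the rest of X -0.73, -0.087 and -0.18. In bins with 75 or more values they were 1.08 for MSL1, 0.28 for MOF and 0.60 for wild type MOF to the arms, and -0.29, -0.16 and -0.46 to the rest of X for *roX* mutant MSL1, MSL2 and MOF. In bins of 25 to 49 values, chosen after seeing the data, they were 0.19 for *roX* mutant MSL2, 0.32 for *roX* mutant MOF and 0.036 for wild type MSL2 to the arms, and -0.025 for MSL1 and 0.0995 for MOF to the rest of X. In bins with 25 or more wild type MOF values, also chosen after seeing the data, the difference to the arms was 0.51 for *roX* mutant MSL1, and to the rest of X -0.25, 0.037 and -0.0061 for *roX* mutant MSL1, MSL2 and MOF. The cause of these changes was not tested. In all, 139 of 196 recomputed values moved by less than the spread over arms or by under 1.5 times, 47 moved more and 10 changed sign. No paired analysis was possible because each group has 1 library and no test was made.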
